A study of Homo sapiens with 4 samples.

Results

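Low-methylated windows inside methylated surroundings are short stretches of the genome where DNA methylation dips while the sequence on either side stays methylated. They were found in bisulfite sequencing of the whole genome of HUDEP-2 cells, a human line of immortalised erythroid precursors whose usual haemoglobin is the adult form. Bisulfite converts unmethylated cytosine, so the percent of reads with C at a CpG is its methylation level. A window of 1 kb on chromosomes 1 to 22 was a member if it held 3 to 9 CpGs listed in all 4 libraries and stood at 10 to 50% in the non-differentiated library. Both adjacent windows had to hold at least 3 such CpGs and stand at 80% or more in the same library. The level of a window is the percent of methylated reads among its reads. This rule gave 3516 members among 2350609 autosomal windows with at least 3 shared CpGs, and the members had 7000 distinct neighbouring windows. The members were chosen by the non-differentiated levels, which are therefore given as a description and were not tested.

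There were 4 libraries, 1 for each group. One came from untreated, non-differentiated cells. The others came from cells after 4 days of the growth phase of differentiation and 2 days of its maturation phase. Those cells received vehicle (DMSO), a DNMT1 inhibitor or an EED inhibitor, each at a final 0.1% DMSO from the expansion stage onward. DNMT1 copies CpG methylation onto newly made DNA, and EED is a core part of the Polycomb repressive complex that adds methyl groups to histone H3. Compound names and doses are not given in the sources used here. Per the labels, cells given either inhibitor made more fetal haemoglobin. A DMSO control for non-differentiated cells was not analysed here, so differentiation and vehicle cannot be told apart in the comparison of the DMSO library with the non-differentiated one. A single library per group gives no replicate spread, and every test compared the reads of 2 libraries, not conditions. Intervals are Wilson intervals at 95% and reflect counting error alone.

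Most of the genome outside CpG islands is methylated in differentiated and precursor cells, and short dips in that methylation are found where transcription factors sit on DNA, at enhancers, at CTCF sites and at promoters. In erythroid cells the factors best known at enhancers are GATA1 and its partner TAL1, which together bind a composite motif of an E-box part and a GATA part, and NFE2, which binds the beta-globin locus control region. CTCF is a zinc-finger protein at insulators and loop anchors, and its binding to DNA can be blocked by methylation. Chromatin and factor binding were not measured in these libraries, so whether a window is an enhancer was not tested.

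The sequences of 3 members near genes of the red-cell programme are shown first, as examples of GATA matches in members; these 3 stretches hold no composite match. They are among the members with a GATA motif and the lowest non-differentiated levels that lie inside, or within 50 kb of the start of, a gene on an erythroid list. Each is 300 bases of the hg38 reference, plus strand, around the CpG with the lowest non-differentiated level. Capitals mark matches, on either strand, to the GATA motif AGATAA or TGATAA and to the NFE2 and AP-1 motif TGAGTCA. A match is a run of letters and not a shown binding site. In the HBE1 and BCL11A stretches 2 GATA matches lie close together, and in the NFE2 stretch a GATA match lies on the minus strand near the end.
HBE1 chr11:5280372-5280671: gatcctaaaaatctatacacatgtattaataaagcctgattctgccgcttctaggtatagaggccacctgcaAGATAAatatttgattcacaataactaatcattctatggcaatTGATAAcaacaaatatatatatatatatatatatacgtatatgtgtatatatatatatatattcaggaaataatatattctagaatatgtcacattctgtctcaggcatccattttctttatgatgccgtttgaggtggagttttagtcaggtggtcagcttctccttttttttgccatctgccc
NFE2 chr12:54262294-54262593: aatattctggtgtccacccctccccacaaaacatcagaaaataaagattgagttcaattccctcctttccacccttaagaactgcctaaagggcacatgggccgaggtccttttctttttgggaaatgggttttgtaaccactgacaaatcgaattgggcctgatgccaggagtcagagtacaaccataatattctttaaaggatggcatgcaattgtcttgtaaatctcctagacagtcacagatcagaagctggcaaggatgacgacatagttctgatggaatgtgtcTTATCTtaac
BCL11A chr2:60498214-60498513: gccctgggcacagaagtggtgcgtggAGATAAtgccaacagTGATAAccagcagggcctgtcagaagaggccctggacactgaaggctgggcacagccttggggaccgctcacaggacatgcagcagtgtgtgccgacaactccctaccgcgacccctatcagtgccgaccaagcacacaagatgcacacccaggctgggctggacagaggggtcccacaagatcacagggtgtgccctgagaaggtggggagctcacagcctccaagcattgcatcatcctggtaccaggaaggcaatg

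The same HBE1 member holds a pair of NFE2 and AP-1 matches beyond that stretch. They are shown in capitals in a stretch of 60 bases that was chosen after the values were seen, and read as TGAGTCA on the minus strand.
HBE1 pair chr11:5280731-5280790: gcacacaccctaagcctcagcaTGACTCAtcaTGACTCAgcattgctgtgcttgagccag

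The next 5 sequences show what the composite motif and the CTCF core look like in members. They were chosen after the values were seen, from the members with the lowest non-differentiated levels among those with a composite match (3 shown) or a CTCF core match (2 shown). Each is 120 bases of the hg38 plus strand with the match at its centre, and capitals mark that match only. The composite was searched as CTG, 8 bases of any kind and AGATAA, and the CTCF core as CCA, 2 bases of any kind, AG, 2 bases of any kind and GGC, on both strands. The composite match at PLIN2 and the CTCF match at CNNM2 lie on the minus strand.
SLC24A2 composite chr9:19901655-19901774: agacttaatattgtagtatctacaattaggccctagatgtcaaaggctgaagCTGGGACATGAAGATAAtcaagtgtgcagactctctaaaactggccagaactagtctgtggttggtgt
PLIN2 composite chr9:19124023-19124142: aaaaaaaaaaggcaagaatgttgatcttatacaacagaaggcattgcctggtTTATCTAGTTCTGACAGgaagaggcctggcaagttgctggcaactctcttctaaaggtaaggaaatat
TET2 composite chr4:105061646-105061765: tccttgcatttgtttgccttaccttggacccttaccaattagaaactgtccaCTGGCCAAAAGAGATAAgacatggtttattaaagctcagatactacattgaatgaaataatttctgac
CNNM2 CTCF chr10:102963330-102963449: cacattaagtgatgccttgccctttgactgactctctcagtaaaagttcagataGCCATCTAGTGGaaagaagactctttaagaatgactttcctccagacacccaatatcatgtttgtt
KLHL41 CTCF chr2:169528357-169528476: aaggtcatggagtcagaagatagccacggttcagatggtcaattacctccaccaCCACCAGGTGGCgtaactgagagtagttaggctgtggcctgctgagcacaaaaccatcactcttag

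These 5 windows were nearly free of methylation at the CpG closest to the match. They were picked for low non-differentiated levels, so low CpGs in them are set in part by that choice and say nothing about the motif. The closest CpG lay 85 bp from the centre of the match for SLC24A2, 167 bp for PLIN2 and 68 bp for CNNM2. The window by SLC24A2, chr9:19901001-19902000, is intergenic, 112 kb from that gene's start, and read 10.4% in non-differentiated cells, 4.24% in DMSO, 0.0% under the DNMT1 inhibitor and 5.75% under the EED inhibitor. The window in an intron of PLIN2, which codes for a lipid droplet protein, is chr9:19124001-19125000 and read 10.9%, 14.8%, 2.58% and 17.1% in the same order. The TET2 window, chr4:105061001-105062000, lies in a lncRNA gene 85.4 kb from the start of TET2, whose enzyme oxidises methylated cytosine, and read 12.3%, 15.2%, 0.0% and 11.8%. At its closest CpG, 85 bp from the centre of the match, 3.12% of 32 DMSO reads were methylated.

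The CNNM2 window, chr10:102963001-102964000, is intronic and read 10.6%, 6.98%, 2.22% and 9.95%. The window by KLHL41, chr2:169528001-169529000, read 11.8%, 6.94%, 0.629% and 8.55%, and its closest CpG, 5 bp from the centre of the CTCF match, read 0.0% of 41 DMSO reads. In each of the 5 windows the DNMT1 inhibitor library was the lowest of the 4.

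Depth was similar across libraries. The deposited tables listed 24689329 to 24971588 CpGs per library at a mean coverage of 27.2 to 29.7 reads, and 23269121 of 25854361 CpGs were listed in all 4. A member held a median of 145 reads in non-differentiated cells, 157 in DMSO, 160 under the DNMT1 inhibitor and 169 under the EED inhibitor. The lowest count in any member was 31 reads. Members were split over CpG numbers as 633 with 3 CpGs, 675 with 4, 602 with 5, 502 with 6, 431 with 7, 380 with 8 and 293 with 9.

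Members had nearly the same pooled level in 3 of the 4 libraries, and their neighbours were methylated in the same 3. Pooled over all members the level was 37.9% in the non-differentiated library (interval 37.8 to 38.1) and 37.997% in DMSO (37.875 to 38.119). It was 7.69% under the DNMT1 inhibitor (7.62 to 7.75) and 37.7% under the EED inhibitor (37.6 to 37.8). Medians over members were 40.4%, 39.5%, 6.98% and 39.1% in that order. Neighbouring windows read 88.6%, 86.8%, 25.0% and 86.9%. Members were lower than their neighbours in all 4 libraries, by fewer points in the DNMT1 inhibitor library.

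**Figure D1:**
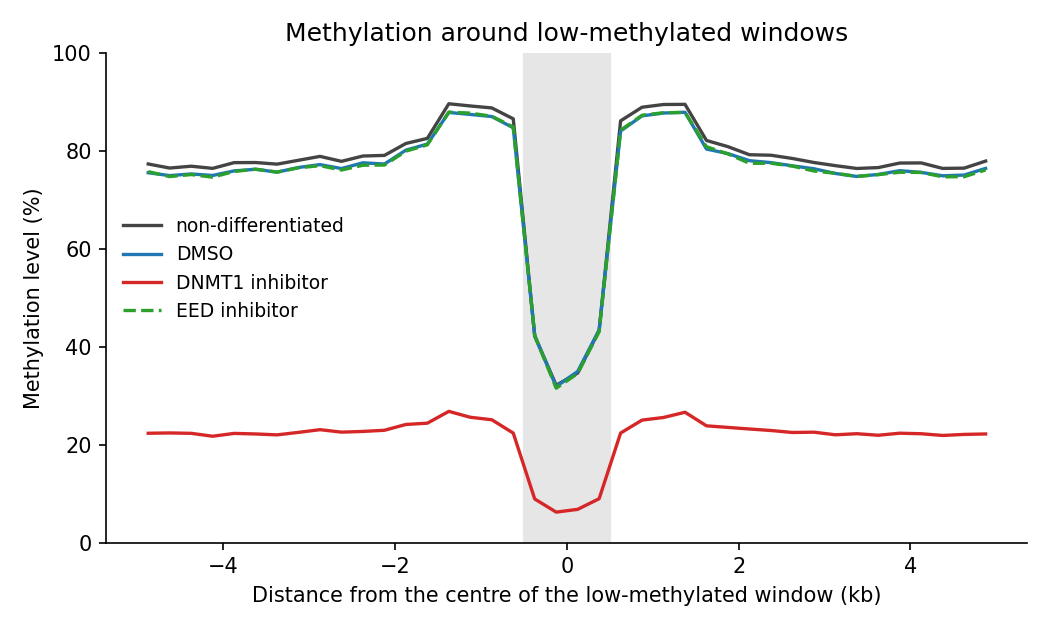
Pooled methylation level (y axis, %) of CpGs in bins of 250 bp against distance from the centre of the 3516 members (x axis, kb), with 1 line per library and the member shaded. The non-differentiated, DMSO and EED inhibitor lines nearly coincide, from 31.5% to 32.1% in the bin just before the centre, while the DNMT1 inhibitor line falls from 22.4% in the bin beside the member to 6.22% in that bin. The high level within 1.5 kb in the non-differentiated library is set by the rule.

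The members were lowest at their middle. In DMSO, the 4 bins of 250 bp across the member read 42.3%, 31.9%, 34.9% and 43.4%. Farther out, 4750 to 5000 bp away on either side, DMSO levels were 75.5% and 76.4%. With the DNMT1 inhibitor the same bins across the member read 8.91%, 6.22%, 6.79% and 8.97%.

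At the edges of the rule the values ran on without a step. The highest member, chr1:65260001-65261000, stood at 50.0% in the non-differentiated library and 53.0% in DMSO. The closest window above the limit, chr2:201746001-201747000, stood at 50.2% and 37.5%. The lowest member stood at 10.0%. The closest window below it, chr3:119418001-119419000, stood at 9.80% in the non-differentiated library and 11.03% in DMSO. Windows at 50 to 55% that met the rest of the rule numbered 1295 and read 52.5% in DMSO, and members at 45 to 50% numbered 1075 and read 47.4%.

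Members overlapped in part with the windows that the same rule gave in other libraries. Applied to DMSO, the rule gave 3067 windows, and 2133 of them were members, which is 60.7% of the members and 69.5% of that list. Applied to the EED inhibitor library it gave 3232 windows with 2208 members, 62.8% of the members and 68.3% of that list. The rule was met in those 2 libraries and the non-differentiated one by 1696 members (48.2%). No window met it with the DNMT1 inhibitor, where no member's neighbours were both at 80% or more.

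The parts of the rule were also counted separately. In DMSO, 3006 members (85.5%) kept a level of 10 to 50%, 476 stood above and 34 below, and 2509 (71.4%) kept both neighbours at 80% or more. All 3516 stood below both neighbours in DMSO and in the EED inhibitor library, by a median of 44.8 and 45.3 points. With the DNMT1 inhibitor 3352 (95.3%) still did, by a median of 11.7 points.

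With the DNMT1 inhibitor nearly every member lost methylation, and so did nearly every autosomal window. The pooled level of members was 30.3 points lower than in DMSO, from 37.997% to 7.69%, and 3514 of 3516 members were lower. Over all autosomal windows the pooled level was 43.8 points lower, and 99.5% of windows were lower. In members the difference ranged from −61.8 to 0.980 points, with a median of −31.3. In all, 2590 members read under 10% with the inhibitor, 50 read 0% and 55 read over 20%. Calls were made by two-sided Fisher's exact test with Benjamini-Hochberg adjustment over 2431792 windows, at an adjusted p under 0.01 together with a change of 25 points or more. By that rule 2516 members, or 71.6%, were called lower, against 81.3% of all windows tested, and none was called higher, against 0.0%. At an unadjusted p under 0.05, 3479 members were lower and 0 higher, against 2294746 and 11 of 2350609 autosomal windows. CpGs that share a read are not independent. With each window's counts scaled down by its CpG number, 1710 members were called lower instead of 2516.

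A window that starts near 40% can fall fewer points than one near 90%, and the calls followed the starting level. All 1000 members that were not called differed by under 25 points, and 513 of them stood under 25% in DMSO, where no such fall is possible. Of 3003 members at 25% or more in DMSO, 2516 were called. Among neighbouring windows 6997 of 7000 were called lower. Among other windows of 3 to 9 CpGs at 10 to 50% whose neighbours were not both at 80%, 56.1% of 672764 were called.

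The share of the DMSO level that was kept with the DNMT1 inhibitor is therefore given beside the points. Members kept 20.2% of their DMSO level and their neighbours kept 28.8%. Other windows of 3 to 9 CpGs in the range of 10 to 50%, without both neighbours at 80%, kept 19.8%, and methylated windows with methylated neighbours kept 28.0%. All autosomal windows kept 27.95%. The other low windows were not matched in level, at 33.6% in DMSO beside 37.997% in members. Libraries were single, so no test of these shares over libraries was possible.

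**Figure D2:**
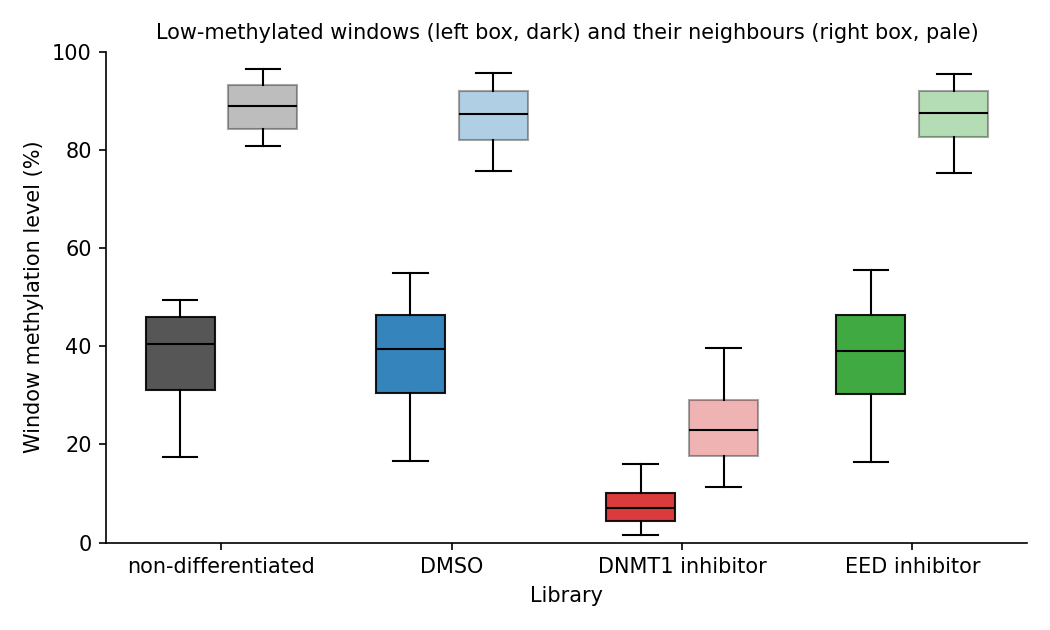
Methylation level per window (y axis, %) in each library (x axis) for the 3516 members (dark left boxes) and their 7000 neighbours (pale right boxes). Boxes span the quartiles with the median as a line, and whiskers reach the 5th and 95th percentiles. The members' median is 40.4%, 39.5%, 6.98% and 39.1% from left to right, and the neighbours' boxes lie above the members' boxes in each library.

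The kept share rose slowly with the starting level. Members at 10 to 20% in the non-differentiated library (259 windows) read 15.7% in DMSO and 2.64% under the DNMT1 inhibitor, a kept share of 16.8%. Members at 20 to 30% (530) kept 18.8%, those at 30 to 40% (897) kept 19.5%, and those at 40 to 50% (1830) kept 20.8%. Their neighbours kept 27.7%, 28.0%, 28.7% and 29.3%, so in each of the 4 bins the member kept less than its neighbours.

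The kept share of low windows was also set out by their surroundings. Windows at 10 to 50% whose neighbours both stood under 40% (105211 windows) kept 20.01%, with 19.7% in the neighbours. With neighbours at 40 to 60% (64306) they kept 19.5%, with 22.4% in the neighbours. With neighbours at 60 to 80% (22595) they kept 20.2%, with 26.4% in the neighbours. Members, with neighbours at 80% or more, kept 20.2% beside 28.8%. The kept share of the low window stayed within 1 point across these classes, while DMSO levels differed, at 31.6%, 34.5%, 37.2% and 37.997%.

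**Figure D3:**
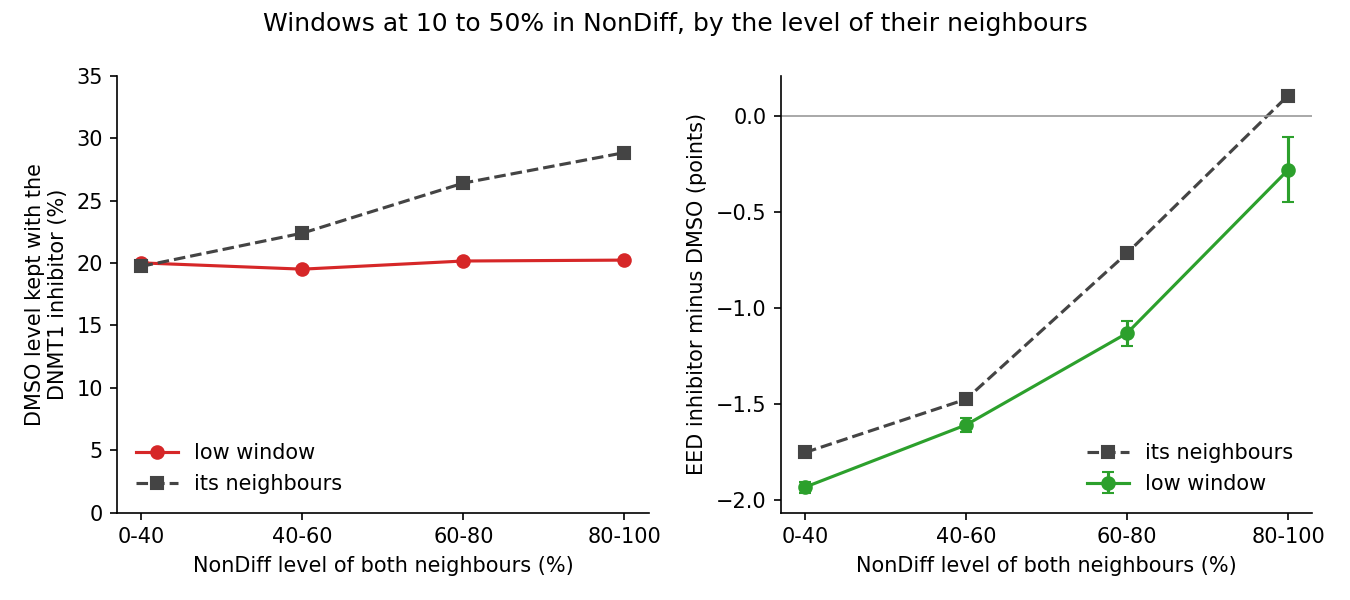
Windows at 10 to 50% in the non-differentiated library, split by the level of both neighbours (x axis, %), with members in the class at 80 to 100%. Left, share of the DMSO level kept with the DNMT1 inhibitor (y axis, %), near 20% for the low window in each class and rising from 19.7% to 28.8% for the neighbours. Right, EED inhibitor minus DMSO (y axis, percentage points), from −1.93 to −0.28 in the low window, with bars for 95% counting intervals.

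CpGs inside members that were themselves methylated also kept less. For CpGs that the non-differentiated library had at 80% or more, with 1 to 2 CpGs within 250 bp, the kept share was 21.3% in members (1262 CpGs), 24.2% in neighbours and 25.6% in methylated windows with methylated neighbours. With 3 to 4 CpGs it was 22.6%, 26.2% and 27.4%, with 5 to 6 it was 23.1%, 27.7% and 29.5%, and with 7 to 10 it was 26.6%, 30.4% and 32.2%. DMSO levels of these CpGs in members were 89.4% to 89.6%, against 92.1% to 93.6% in methylated windows. Other windows at 10 to 50% gave 21.6%, 23.1%, 24.7% and 26.7%, from DMSO levels of 84.2% to 85.7%.

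The 5 members with the largest called fall were named by rule. In an intron of MAPK8, the gene of the stress kinase JNK1, chr10:48309001-48310000 read 49.1% in non-differentiated cells, 64.3% in DMSO (interval 55.8 to 72.1, 129 reads), 2.58% under the DNMT1 inhibitor (1.01 to 6.45, 155 reads) and 60.9% under the EED inhibitor. The change of −61.8 points gave an adjusted p of 2.99e-32 in Fisher's exact test. Its 4 CpGs read 67.6%, 82.4%, 89.7% and 13.8% in DMSO and 7.14% or less with the DNMT1 inhibitor, so 3 methylated CpGs and a low CpG made up this window.

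STOML3 (chr13:38986001-38987000, intron) read 47.1%, 68.3%, 7.14% and 55.4% in the order just used. RHD (chr1:25302001-25303000, intron), the gene of the Rh D blood group antigen, read 47.5%, 62.9%, 1.82% and 43.9% and holds a composite match. RHD has a near-identical neighbour, RHCE, so reads may be shared between them and this value is uncertain. TBL1XR1 (chr3:177065001-177066000, intron) read 49.02%, 62.2%, 3.88% and 57.4%. The window by THEM4 (chr1:151915001-151916000, intergenic) read 41.5%, 63.5%, 5.56% and 64.0%. All 5 stood higher in DMSO than in the non-differentiated library, which the choice of these members set. Falls this large need a DMSO level above the limit that the rule put on the non-differentiated level.

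With the EED inhibitor the members as a set stayed close to DMSO. The pooled difference was −0.280 points, with a counting interval of −0.449 to −0.111, and the median over members was −0.07 points. The members were split between 1771 lower and the rest higher or equal. Differences had an SD of 7.17 points over members, against 5.52 points from read counting alone. The SD was 5.58 against 4.31 points over all autosomal windows and 6.61 against 5.20 points over the other windows at 10 to 50%. An excess over counting was thus not particular to members. A difference of 15 points or more was found in 76 members upward (2.16%) and 84 downward (2.39%), against 0.487% and 1.35% of all autosomal windows, whose SD from read counting was 4.31 points. In the other windows at 10 to 50% these shares were 0.784% and 2.59%. By Fisher's exact test with the same adjustment and thresholds, 2 members were called lower, or 0.0569%, against 0.0266% of all windows, and 2 were called higher, against 0.00592%. In the other windows at 10 to 50%, 0.0498% were called lower and 0.00907% higher. At an unadjusted p under 0.05, 234 members were lower and 205 higher, against 196920 and 100319 of 2350609 autosomal windows.

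Low windows in less methylated surroundings lay further below DMSO, and so did their neighbours. With neighbours under 40% the EED inhibitor difference was −1.93 points, with neighbours at 40 to 60% it was −1.61, and with neighbours at 60 to 80% it was −1.13. Counting intervals of these 4 classes, members included, did not overlap. The order did not go on within members, where the 852 with neighbours at 90% or more read −0.502 points, with a counting half-width of 0.340. The neighbours in the first 3 classes read −1.75, −1.47 and −0.713 points. Neighbours of members read 0.107 points higher with the EED inhibitor than in DMSO, and all autosomal windows read −1.01 points. Both inhibitor comparisons share the DMSO library.

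The 4 members called with the EED inhibitor are single-library differences. In an intron of SENP6, which codes for a SUMO protease, chr6:75620001-75621000 read 30.8% in non-differentiated cells, 54.3% in DMSO (45.7 to 62.7, 127 reads), 13.0% under the DNMT1 inhibitor and 27.6% under the EED inhibitor (21.3 to 34.9, 163 reads). Fisher's exact test gave an adjusted p of 0.00435 there, and the EED inhibitor level lay near the non-differentiated one. A transcript start lies inside that window. In an intron of NR5A2, a nuclear receptor gene, chr1:200139001-200140000 read 40%, 51.8%, 2.29% and 26.7%, and Fisher's exact test gave an adjusted p of 0.00215.

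Both higher calls were in windows at 29.1% or less in DMSO. In an intron of GOLIM4, which codes for a Golgi protein, chr3:168024001-168025000 holds a CTCF core match and read 44.9% in non-differentiated cells, 23.8% in DMSO (18.9 to 29.5, 244 reads), 4.55% under the DNMT1 inhibitor and 52.8% under the EED inhibitor (46.8 to 58.6, 271 reads). Fisher's exact test gave an adjusted p of 2.39e-07 there. The other, chr11:27205001-27206000, lies in a lncRNA gene with CCDC34 as the nearest protein-coding start and read 34.7%, 29.1%, 3.41% and 59.2%, and Fisher's exact test gave an adjusted p of 0.00859. There, all 4 CpGs were higher under the EED inhibitor, at 39.1% to 68.4%, than in DMSO, at 21.7% to 35.5%. When reads were divided by the number of CpGs, because CpGs on 1 read are not independent, none of the 4 calls was made.

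DMSO minus non-differentiated uses the library that chose the members and is a description. The pooled difference was 0.0547 points over members, with an SD of 6.35 points against 5.75 from counting. No test is given for it. Neighbours read −1.79 points. Across the 3516 members the DMSO level went with the EED inhibitor level (Pearson's r 0.814, Spearman's rho 0.788) and less with the DNMT1 inhibitor level (0.523 and 0.542). Windows are not replicates, and these correlations share CpG positions and read depth.

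A member was mostly a mixture of unmethylated and methylated CpGs. Of 19315 CpGs in members, 43.5% stood under 20% in DMSO, 33.5% at 20 to 80% and 23.1% at 80% or more. In neighbours, which the rule chose for high levels, 1.39% stood under 20% and 82.2% at 80% or more. In the other low windows, whose neighbours were not both at 80%, 44.2% stood under 20% and 13.1% at 80% or more. The share of CpGs under 20% was thus not particular to members. A CpG under 20% and a CpG at 80% or more were found together in 2567 members (73.0%) in DMSO. In 94 members every CpG lay at 20 to 80%. With the DNMT1 inhibitor 86.5% of the CpGs in members stood under 20%.

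Some members rest on few CpGs. In 179 members a single CpG stood under 50% in the non-differentiated library, and in 166 every CpG did. In 1486 members (42.3%) at least 1 CpG read 0% in the non-differentiated, DMSO and EED inhibitor libraries. A C-to-T difference of this line from the reference would read the same way, and its part was not tested.

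Members, like their neighbours, lay closer to gene starts than all autosomal windows and farther than methylated windows with methylated neighbours. A transcript start of a protein-coding or lncRNA gene was over 2500 bp away for 2881 members (81.9%) and 81.7% of their neighbours. The share was 84.8% in all autosomal windows, 93.0% in the other windows at 10 to 50% and 77.5% in methylated windows with methylated neighbours. The median distance was 10939 bp in members, 10905.5 bp in their neighbours, 18512 bp in all windows and 8199 bp in methylated windows with methylated neighbours. A start lay inside 149 members (4.24%). By annotation 2009 members (57.1%) were intronic, 923 (26.3%) intergenic, 395 in lncRNA genes and 189 exonic.

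The position went with small differences in level. Members with a start inside read 35.1% in DMSO and kept 18.7% with the DNMT1 inhibitor, and members over 50 kb from a start (440) read 37.7% and kept 22.004%. Median GC content was 39.1% in members, 40.8% in neighbours and 38.2% in methylated windows. Members held a median of 6 reference CpGs, and 82.2% of the reference CpGs in members were shared by the 4 libraries, against 91.8% in neighbours and 92.8% in methylated windows. In 71 members there were 20 or more reference CpGs, so only part of a CpG-rich stretch was measured in them.

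Members were spread along the autosomes. The median gap between adjacent members was 290000 bp, 154 gaps were within 10 kb and 32 were 2 kb, the smallest that the rule allows. Per 1000 methylated windows with methylated neighbours there were from 15.9 members on chromosome 19 (22 members) to 33.8 on chromosome 22 (64 members). Chromosome 1 held the most, 374. The gene bodies with the most members, named after the counts were seen, were PARD3, a cell polarity gene with 7 members over 706 kb, and FHIT with 6 over 1504 kb. DYRK1A, a kinase gene, held 5 in 161 kb, and PIP4K2A, a lipid kinase gene, held 5 in 180 kb.

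The composite motif and the CTCF core were more frequent in members than in the other 4 sets of windows. The composite GATA-TAL1 motif, as in the SLC24A2 and TET2 sequences, was in 172 members (4.89%), in 1.27% of neighbours, in 1.45% of the other windows at 10 to 50%, in 1.28% of methylated windows and in 1.32% of all autosomal windows. The CTCF core, as in the KLHL41 sequence, was in 219 members (6.23%), against 2.31%, 2.07%, 1.87% and 2.67% in those sets. Only 2 members held both. With neighbours at 70% or more in the rule, the composite share was 3.04% of 11243 windows. No test was made, because windows are not replicates.

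More common motifs gave smaller ratios. The NFE2 and AP-1 motif TGAGTCA was in 757 members (21.5%), against 13.6% of methylated windows and 14.7% of all windows. The GATA motif AGATAA or TGATAA, which the composite contains, was in 2996 members (85.2%), against 77.7% and 71.3%. At least 4 GATA matches were found in 710 members (20.2%), against 9.61% and 8.37%. RUNX (TGTGGTT), a motif of RUNX1 in blood stem and progenitor cells, was in 23.4% of members, against 18.2% and 17.7%. ETS (CAGGAAGT) was in 7.25%, against 5.07% and 5.39%.

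Of the remaining motifs, the TAL1 E-box differed little between the sets, and KLF gave another order of them. The TAL1 E-box CAGATG was in 52.5% of members, 47.99% of neighbours and 49.96% of the other windows at 10 to 50%. It was in 48.3% of methylated windows and 49.5% of all windows. The KLF motif CCACACCC, bound by KLF1 in red cells, was in 7.71% of members, 9.81% of neighbours, 4.59% of the other windows at 10 to 50%, 7.03% of methylated windows and 8.40% of all windows. Of the motifs searched as contrasts, the REST core, of neuronal gene repression, was in 0 members and 0.0589% of all windows. The hepatocyte motif HNF1 was in 0 members and 0.00902% of all windows, so 0 says little at this number of members.

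**Figure D4:**
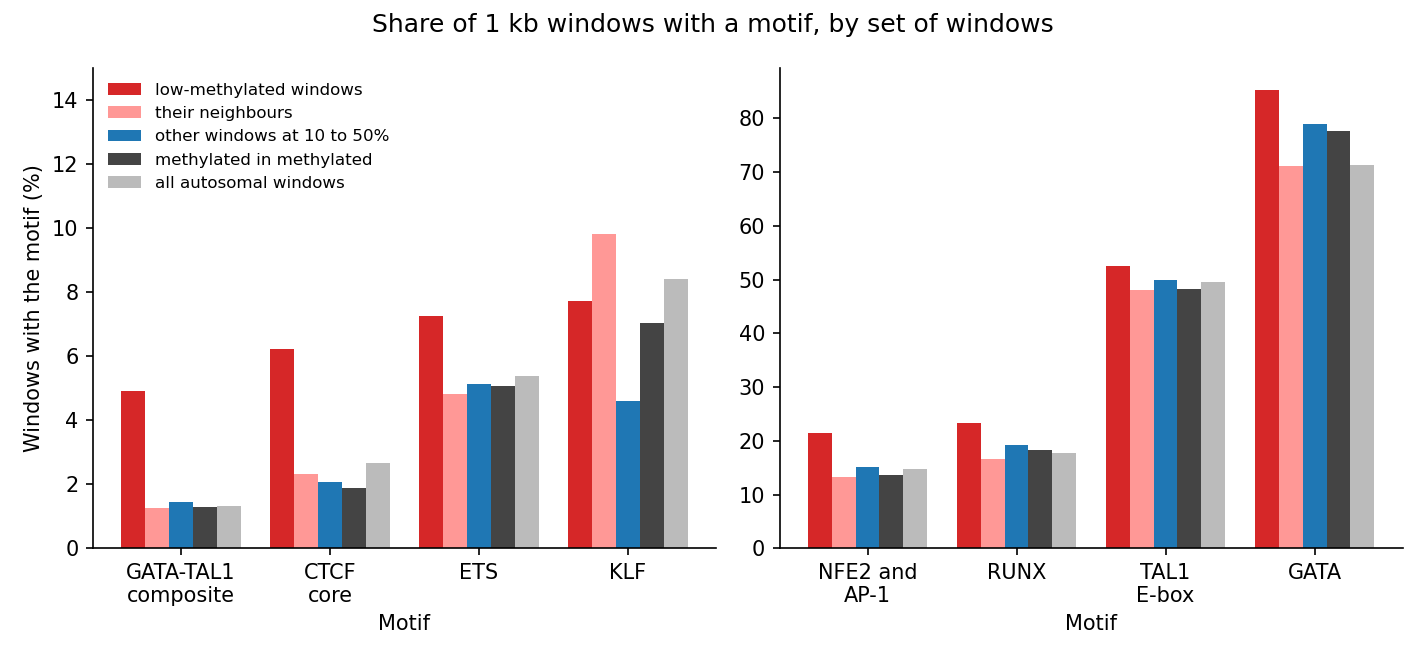
Share of windows with each motif (y axis, %) for 8 motifs (x axis), with bars for members, their neighbours, other windows at 10 to 50%, methylated windows with methylated neighbours and all autosomal windows. The 2 panels have different y axes. The composite is in 4.89% of members and 1.27% to 1.45% of the other sets, and the CTCF core in 6.23% and 1.87% to 2.67%.

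The order held within classes of GC content. In each of 5 GC classes the composite, the CTCF core, the NFE2 and AP-1 motif and GATA were more frequent in members than in methylated windows and in the other windows at 10 to 50%. For the composite, members under 38% GC (1457) had 4.53% against 1.41% in methylated windows, and members at 50% GC or more (222) had 5.41% against 0.717%. For the CTCF core the same classes had 5.22% against 1.11%, and 14.0% against 7.47%. The KLF motif was less frequent in members than in methylated windows under 38% GC, at 2.81% against 3.75%. It was near equal at 38 to 42% GC (8.37% against 8.26%) and at 42 to 46% (11.54% against 11.61%). It was more frequent in members at 46 to 50% (14.3% against 12.7%) and at 50% or more (18.9% against 14.8%).

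The composite and the CTCF core were found more often where the surroundings were more methylated. Among windows at 10 to 50%, the composite was in 1.41% with neighbours under 40%, 1.46% with neighbours at 40 to 60%, 1.66% at 60 to 80% and 4.89% in members. The CTCF core was in 1.97%, 2.28%, 2.84% and 6.23%. The NFE2 and AP-1 motif was in 15.4%, 15.3%, 15.9% and 21.5%. GATA did not follow this order, at 79.9%, 76.6%, 76.5% and 85.2%. The largest step for each of the 4 motifs lay between the class at 60 to 80% and the members.

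CpGs in members were less methylated next to a motif match than far from it, for each of the 8 motifs. The levels that follow are from DMSO, which the rule did not use but which tracks the library that it used, so they are a description. Distances were taken inside the window, so distance from a match and place in the window can go together. Members read 42.3% and 43.4% in their outer bins and 31.9% and 34.9% in their middle bins. The part of place in the window was not tested. Within 50 bp of a composite match 105 CpGs read 13.3%, and the level was 23.3% at 50 to 100 bp, 29.2% at 100 to 200 bp, 41.0% at 200 to 400 bp and 54.8% farther away. Around a CTCF core the levels were 8.06% (201 CpGs), 21.3%, 25.2%, 48.0% and 53.2%. For the NFE2 and AP-1 motif they were 22.6%, 28.2%, 35.004%, 42.3% and 44.2%, and for GATA 24.7%, 33.0%, 39.3%, 45.03% and 50.3%. The KLF motif, which was not more frequent than in all windows, had 28.5%, 35.6%, 40.6%, 37.3% and 39.2%. From the closest to the farthest class the level went from 26.3% to 43.7% for RUNX, from 29.5% to 40.8% for ETS and from 32.5% to 43.8% for the TAL1 E-box, so lower levels by a match were not particular to the composite and CTCF.

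Methylated windows with methylated neighbours were chosen for a non-differentiated level of 80% or more, so high levels by any motif are set by that choice. Within 50 bp and beyond 400 bp, their CpGs read 84.04% (824 CpGs) and 90.7% around the composite in DMSO, 90.01% and 90.4% around the CTCF core, and 88.3% and 90.9% around GATA.

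In the inhibitor libraries, too, the class closest to these 2 motifs read lower than the farthest class in members. With the DNMT1 inhibitor, CpGs in members within 50 bp of a composite read 2.95% and those beyond 400 bp 11.98%, and by the CTCF core 1.87% and 8.93%. The share of the DMSO level kept was not lower by the match. It was 22.2% and 21.8% for the composite, and 23.2% and 16.8% for the CTCF core, with no counting interval made. With the EED inhibitor the composite values were 13.6% and 55.01%, and the CTCF core values 8.64% and 53.0%. Under the DNMT1 inhibitor the CTCF core levels did not rise at each step, at 4.89% for 50 to 100 bp and 3.72% for 100 to 200 bp.

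**Figure D5:**
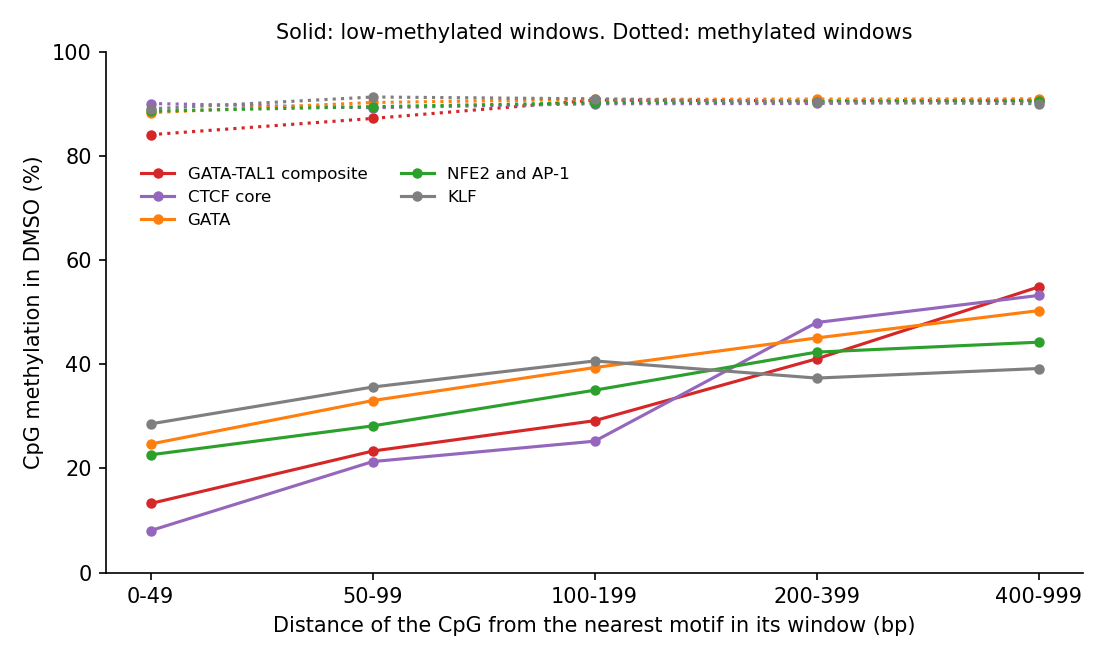
DMSO methylation level of CpGs (y axis, %) by distance from the closest match to a motif in the same window (x axis, bp, in classes), with solid lines for members and dotted lines for methylated windows with methylated neighbours. In members the CTCF core line runs from 8.06% to 53.2% and the composite line from 13.3% to 54.8%, and the dotted lines stay above 80%, which the choice of those windows sets.

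Over the whole window, members with a match read lower in DMSO than members without it, for every motif found in members except the TAL1 E-box. Lower levels were thus not particular to the composite and the CTCF core. For GATA the levels with and without a match were 37.7% and 39.7%, and for ETS 36.9% and 38.1%. Members with a composite read 36.4% in DMSO and kept 20.9% with the DNMT1 inhibitor, against 38.1% and 20.2% in members without one. Members with a CTCF core read 35.6% in DMSO and 6.28% under the DNMT1 inhibitor and kept 17.6%, against 38.2%, 7.79% and 20.4%. The EED inhibitor difference was 0.0366 points in the 172 members with a composite and −0.295 in those without. In the 255 members with an ETS motif, the highest value among the motifs, it was 0.749 points, and −0.363 in those without. With the remaining motifs it ran from −0.331 for RUNX to 0.0518 for the CTCF core. No counting interval was made for these subsets, so nothing is read from their differences.

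By count of genes, the red-cell programme had members nearby more often than the average gene, before allowing for the sequence around the genes. A member lay in the body or within 50 kb of the start of 24 of 65 genes on the erythroid list (36.9%), against 3725 of 19111 protein-coding genes (19.5%). The counts were 4 of 20 for lymphoid genes, 2 of 20 for myeloid, 2 of 19 for hepatocyte, 1 of 20 for neuron and 1 of 20 for muscle genes. The lists differ in how much methylated sequence surrounds them. Methylated windows with methylated neighbours numbered 11.4 within 50 kb of an erythroid gene on average and 8.31 for all genes. They numbered 4.45 for lymphoid, 3.70 for myeloid, 2.63 for hepatocyte, 2.00 for muscle and 0.850 for neuron genes. In proportion to these windows, members were more in the lymphoid, myeloid, hepatocyte and neuron lists than in the erythroid one, on 4 or fewer members each. By the same measure the erythroid list stood above all protein-coding genes and above the muscle list, which had 1 member. The mean number of members within 50 kb was 0.354 per erythroid gene and 0.195 per protein-coding gene. HBE1, HBD, HBG1 and HBG2 were counted through the same window. The part of the methylated surroundings in the counts was not tested.

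The erythroid members were traced gene by gene through the member closest to each start. It was within 100 kb for 34 of 65 genes, and within 50 kb or inside the gene for 23, through 20 distinct members. Of the 20, 17 held a GATA motif, beside 85.2% of members and 71.3% of all windows, and 0 held the composite, beside 4.89% of members. With the DNMT1 inhibitor 14 of the 20 were called lower, beside 71.6% of members and 81.3% of all windows. Their levels had a median of 42.2% in non-differentiated cells, 41.2% in DMSO (11.005 to 51.1), 6.87% under the DNMT1 inhibitor (0.990 to 26.6) and 36.6% under the EED inhibitor (11.1 to 59.2). None was called with the EED inhibitor. Levels that follow are for non-differentiated cells, then DMSO, then the DNMT1 inhibitor, then the EED inhibitor.

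The erythroid member that was lowest in the non-differentiated and DNMT1 inhibitor libraries lies in the beta-globin locus. It is chr11:5280001-5281000, 10.6 kb upstream of the start of HBE1, the embryonic globin gene, at the place of hypersensitive site HS2 of the locus control region. The annotation has it in an intron of long HBE1 and HBG2 transcripts. It was also the closest member to HBB, HBD, HBG1 and HBG2. The window read 13.3% (83 reads), 11.6% (129 reads), 0.990% (101 reads) and 12.1% (132 reads), while its neighbours read 82.0% and 93.5% in DMSO. Of its 5 CpGs, 4 read 0.0% in DMSO and the other, at position 5280417, read 57.7%, then 2.94% under the DNMT1 inhibitor and 51.9% under the EED inhibitor. The difference of −10.6 points with the DNMT1 inhibitor gave an adjusted p of 0.00129 in Fisher's exact test and was under 25 points.

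The member closest to NFE2, which codes for the erythroid factor NF-E2, is chr12:54262001-54263000, in an intron of CBX5 with a transcript start inside. It read 15.3%, 11.005%, 2.46% and 11.1%, the lowest of the 20 in DMSO and under the EED inhibitor. The BCL11A member is chr2:60498001-60499000, in an intron 55.2 kb from the start, where the erythroid enhancer of this fetal globin repressor lies. It read 23.1% (interval 17.6 to 29.7), 15.3% (11.1 to 20.7), 3.63% (1.77 to 7.30) and 22.4% (16.6 to 29.4). Its 5 CpGs from 60498235 to 60498380 other than 60498320 read 0.0% in DMSO, and those at 60498753 and 60498918 read 56.8% and 56.2%. The EED inhibitor difference of 7.08 points gave an adjusted p of 0.482 in Fisher's exact test and was not detectable at this depth.

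The next 4 members lie by other erythroid regulator genes and are not all of those on the list. The LMO2 member, chr11:33846001-33847000, read 38.5%, 41.3%, 1.31% and 31.8%, and LMO2 bridges TAL1 and GATA1. The TAL1 member, chr1:47203001-47204000, holds a GATA and a CTCF core match and read 39.5%, 43.8%, 11.6% and 44.1%. The RUNX1 member, chr21:34983001-34984000, holds 5 GATA matches and read 50.0%, 41.9%, 16.1% and 59.2%. Its EED inhibitor difference of 17.2 points gave an adjusted p of 0.130 in Fisher's exact test. The ZBTB7A member, chr19:4058001-4059000, in another fetal globin repressor gene, read 48.2%, 45%, 3.70% and 53.8%.

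JAK2, the kinase of the erythropoietin receptor, had the highest level among the 20 under the DNMT1 inhibitor. Its member chr9:4995001-4996000 read 39.0%, 48.8%, 26.6% (interval 19.2 to 35.6) and 36.8%. Its neighbours read 24.8% and 30.8% with the DNMT1 inhibitor, so the member was not below both of them in that library. The difference of −22.2 points from DMSO gave an adjusted p of 0.00254 in Fisher's exact test and was under 25 points.

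Among genes of red-cell structure and metabolism, TMOD1, which caps actin filaments of the membrane skeleton, had chr9:97506001-97507000 at 43.3%, 43.98%, 2.91% and 48.3%. TFR2, an iron sensor, had chr7:100626001-100627000 at 46.2%, 46.2%, 7.41% and 45.7%. BPGM, the enzyme that makes 2,3-bisphosphoglycerate, had an exonic member with a start inside, chr7:134660001-134661000, at 43.6%, 40.8%, 6.34% and 36.4%. CD36, a fatty acid receptor of erythroid precursors, had chr7:80652001-80653000 at 48.6%, 41.1%, 3.95% and 43.8%, with no GATA match. In each of these 4 the DNMT1 inhibitor library was called lower by Fisher's exact test, with adjusted p values from 4.25e-22 for TMOD1 to 2.62e-08 for TFR2.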

How the data were processed

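Each of the 4 tables deposited by the authors gives, per the file headers, a coverage count for each CpG and the percent of its reads with C, in the layout of methylKit. Strands were merged, and only CpGs with at least 10 reads are listed. The submitters' processing notes name Trim Galore 0.6.7, cutadapt 4.1, Bismark, Bowtie2 2.1.0, methylKit and hg38, with no roles or settings, and how duplicates were treated is not given in the sources used here. Methylated reads were recovered by rounding coverage times percent. Shared CpGs lay on a reference CpG in 99.99% of cases.

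Reads were summed in windows of 1000 bp. Two-sided Fisher's exact tests compared methylated with unmethylated read numbers in windows with 3 or more shared CpGs (chromosomes 1 to 22 and X), and Benjamini-Hochberg adjustment was made in each comparison. The comparison of DMSO with the non-differentiated library, which chose the members, is given without a test. CpGs on 1 read, and PCR copies, are not independent, so these p-values are too small for windows. Code was tested on simulated data. GENCODE 44 gave genes, and motifs were searched in the reference. Python 3.11.15, NumPy 2.4.6, SciPy 1.17.1 and numba 0.67.0 were used.

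The members, gene lists, motifs and tests were chosen with earlier results of these data known. Named members were the 5 largest called differences per comparison and direction outside chromosome 8, and for each erythroid gene the member closest to its start within 100 kb. Sequences from chromosome 8 were not considered for printing, and some members and sequences chosen by these rules are not reported here. The sequences that this rule allowed for the first called members are not printed. Where CpGs tied for the lowest level, the stretch was set, after the data were seen, on the CpG with most motif matches around it.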

Additional observations from a re-analysis of the deposited data

How the results depend on the processing

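Of 208 values recomputed under other settings, 153 stayed within counting error or, for counts, within 1.5 times, and 55 moved. Those that stayed include values that were 0 in every setting, which could hardly move. Among these are members called higher with the DNMT1 inhibitor and members that met the rule in that library. Call counts for DMSO minus non-differentiated are also among them, and nothing is read from those. Of the 208, 1 changed sign, DMSO minus non-differentiated, which was −0.00118 points with at least 2 CpGs under 50%, within counting error of 0.0547. The settings for motif shares and the setting of 80% of reference CpGs shared were added after the data were seen. Members numbered 1703 with a non-differentiated level of 10 to 40%, 852 with neighbours at 90% or more and 11243 with neighbours at 70% or more. In those 3 sets the members called lower with the DNMT1 inhibitor were 820, 604 and 8064. The pooled DNMT1 inhibitor difference was −29.7 points at 20 reads per CpG, −24.2 at 10 to 40% and −30.1 with at least 2 CpGs under 50%. The EED inhibitor difference was −0.486 at 10 to 40%, −0.502 with neighbours at 90% and −0.571 at 70%. DMSO minus non-differentiated was 0.237 with windows begun 500 bp later and 0.583 at 10 to 40%.

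Members called higher with the EED inhibitor were 1 at 20 reads, 1 with shifted windows, 1 at 10 to 40%, 0 with neighbours at 90% and 0 with reads divided by CpGs. Those called lower were 0 at 20 reads, 7 with neighbours at 70%, 1 with unweighted means, 1 without starts within 2500 bp, 6 at an adjusted p under 0.05 and 0 with reads divided by CpGs. The share of members that met the rule in DMSO was 63.5% at 20 reads, 58.1% at 10 to 40%, 57.4% with neighbours at 90% and 65.9% unweighted. In the EED inhibitor library it was 51.4% with neighbours at 90%, 58.1% at 70% and 65.9% unweighted.

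The kept share of members was 20.5% at 20 reads, 20.6% with shifted windows, 19.2% at 10 to 40%, 20.4% with neighbours at 70%, 19.96% unweighted and 20.6% without close starts. That of neighbours was 28.2%, 29.3%, 28.3%, 28.3%, 29.4% and 29.2% in the same settings and 30.02% with neighbours at 90%. The GATA share was 80.9% at 20 reads, 87.1% at 10 to 40%, 92.3% with neighbours at 90%, 80.4% at 70%, 86.5% without close starts and 87.5% with 80% of reference CpGs shared. The composite share was 3.85% with shifted windows and 3.04% with neighbours at 70%, where the CTCF core had 4.16% and the NFE2 and AP-1 motif 18.6%. The cause of these shifts was not tested.

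No paired analysis was possible because each group had 1 library and the labels give no replicate numbers. Levels of single members rest on few CpGs and a median of 145 to 169 reads, and a fall of 25 points cannot be reached by members under 25% in DMSO.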
